A study of Mus musculus with 6 samples.

Results

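A set of 10 CXC chemokine ligands, Cxcl1, Cxcl2, Cxcl3, Cxcl5, Cxcl9, Cxcl10, Cxcl11, Cxcl12, Cxcl14 and Cxcl16, were followed in mouse microglia that had been kept with neutrophils of either Cd177 genotype. These 10 genes were taken by name from the 55335 gene identifiers of the table, and they were chosen from values of the same KO and WT libraries, so their difference between the arms is given as a description without a test. Only 3 of the 10 (Cxcl2, Cxcl10 and Cxcl14) had a mean of at least 1 FPKM (fragments scaled to transcript length in kilobases and to 1000000 mapped fragments) over the 6 libraries, the level needed to enter the fit, which held 11395 genes.

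The question of the experiment was how neutrophils that carry or lack Cd177, a surface protein of neutrophils, affect the transcripts of microglia. Neutrophils were taken by magnetic sorting from the injured spinal cord of Cd177 WT or Cd177 KO mice at 3 days after spinal cord injury (SCI), and were cultured for 24 h in direct contact with primary microglia. In both arms the microglia were Cd177 WT cells. They were grown from neonatal C57BL/6 brain, detached by shaking on culture day 14, and after the co-culture were recovered by flow sorting as cells negative for the neutrophil protein Ly6G. There were 3 libraries with WT neutrophils and 3 with KO neutrophils, and the words WT and KO below refer to the neutrophils. Whether replicate libraries stand for separate cultures or animals is not said in the labels, so the p-values measure only the spread between these samples, which may be technical. No culture of microglia without neutrophils was analysed here.

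CXC chemokines are small secreted proteins that guide leukocytes through G protein-coupled receptors. Ligands that carry the motif glutamate-leucine-arginine before their first cysteines, such as Cxcl1, Cxcl2, Cxcl3 and Cxcl5, attract neutrophils through Cxcr2 and are classic targets of the transcription factor NF-kB. Cxcl9, Cxcl10 and Cxcl11 are induced by interferons and attract T and NK cells through Cxcr3. Cxcl12, the ligand of Cxcr4, and Cxcl14 are made without an inflammatory stimulus in many tissues, and Cxcl16 is a membrane-bound ligand of Cxcr6 that is also released by proteolysis.

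In these libraries, transcripts of Cxcl2 were abundant and those of Cxcl10 clearly present with WT neutrophils. With KO neutrophils Cxcl2 was low but above the limit of detection, and Cxcl10 was closer to that limit. Cxcl14 was instead higher with KO neutrophils. The remaining members were listed at low levels or at 0. Neighbouring genes could differ widely: Cxcl2 reached a mean of 121 FPKM with WT neutrophils, while Cxcl1, whose start lies 12.63 kb away, was listed at 0 in 5 of 6 libraries.

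The 300 bases around the annotated start (250 before to 50 after) were available in RefSeq (build GRCm38.p6) for 7 of the 10 members, all but Cxcl5, Cxcl11 and Cxcl16. The stretch from base 220 to base 31 before the start is printed here for Cxcl2, for its neighbours Cxcl1 and Cxcl3, which were near 0, and for Cxcl10 and Cxcl14, which differed between the arms in opposite directions. Capitals mark matches, on either strand, to the NF-kB motif GGANTTTCC, to its RelA form GGGNNTTCC and to the interferon-stimulated response element (ISRE) GAAANNGAA.
Cxcl2, chr5:90903679-90903868, plus strand: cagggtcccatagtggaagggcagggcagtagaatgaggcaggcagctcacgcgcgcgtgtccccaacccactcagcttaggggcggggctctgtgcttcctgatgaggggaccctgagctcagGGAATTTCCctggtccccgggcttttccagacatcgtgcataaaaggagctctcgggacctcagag
Cxcl1, chr5:90891025-90891214, plus strand: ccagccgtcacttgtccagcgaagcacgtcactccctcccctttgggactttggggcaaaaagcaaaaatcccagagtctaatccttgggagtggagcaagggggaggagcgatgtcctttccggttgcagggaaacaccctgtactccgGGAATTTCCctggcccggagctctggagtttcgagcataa
Cxcl3, chr5:90785881-90786070, plus strand: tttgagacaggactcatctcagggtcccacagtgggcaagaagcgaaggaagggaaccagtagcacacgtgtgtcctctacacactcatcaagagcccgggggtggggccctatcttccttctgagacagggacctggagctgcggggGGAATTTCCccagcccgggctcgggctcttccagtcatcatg
Cxcl10, chr5:92348920-92349109, minus strand: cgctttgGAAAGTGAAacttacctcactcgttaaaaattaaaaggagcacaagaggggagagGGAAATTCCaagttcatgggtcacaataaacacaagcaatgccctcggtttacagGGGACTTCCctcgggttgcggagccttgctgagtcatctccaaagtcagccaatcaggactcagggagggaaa
Cxcl14, chr13:56296582-56296771, minus strand: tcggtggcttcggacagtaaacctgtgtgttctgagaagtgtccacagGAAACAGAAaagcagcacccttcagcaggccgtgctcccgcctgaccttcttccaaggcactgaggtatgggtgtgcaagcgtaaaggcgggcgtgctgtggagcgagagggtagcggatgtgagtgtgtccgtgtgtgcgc

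The same 9 letters, GGAATTTCC, stood in the promoters of Cxcl2, Cxcl1 and Cxcl3, starting 96, 70 and 72 bases before the RefSeq start. The GENCODE M21 starts of these genes, given below, are not the same as the RefSeq starts. They differ most for Cxcl2, so the distances depend on the annotation. Of 32851 promoter windows of the same length, 1.25% held the motif GGANTTTCC. Thus the letters of this match did not separate Cxcl2 from the neighbours that were near 0. The Cxcl10 promoter held GGAAATTCC at 158 bases, the RelA form GGGACTTCC at 103 bases, the ISRE match GAAAGTGAA at 213 bases and TGAGTCA, a match to the AP-1 motif TGANTCA, at 74 bases before the start. The shares of all windows with a match were 5.82% for the RelA form, 8.56% for the ISRE and 7.81% for AP-1. Cxcl9, listed at 0 in every library, had the RelA form at 130 and 42 bases and an ISRE match at 175 bases before its start, and an AP-1 match, TGACTCA, at 31 bases after it. The Cxcl14 window had no match to either NF-kB form but held the ISRE match GAAACAGAA at 172 bases, and Cxcl12 had none of the 3. Also searched were the C/EBP motif TTGCNNAA (10.8% of windows), the STAT motif TTCNNNGAA (8.3%) and, on the coding strand, the TATA box TATAAA (8.32%). None of the 7 member windows held the C/EBP letters, the STAT motif matched in Cxcl14 and the TATA box in Cxcl3 and Cxcl9. The motifs were picked with the expression values known, and a match is a description of letters, not a binding site.

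Among the neutrophil-attracting ligands, Cxcl2 (chromosome 5, 90903871 to 90905938, plus strand, GRCm38, GENCODE M21) was the only one above its detection floor. Its FPKM was 119, 120 and 124 in the WT libraries and 0.547, 0.581 and 0.661 in the KO libraries. All WT libraries lay far above all KO libraries, and the spread within an arm was small, with a coefficient of variation of 2.00% in the WT and 9.81% in the KO arm. The means were 121 ± 2.42 FPKM and 0.596 ± 0.0585 FPKM (SD, n = 3 each), so the WT mean was 202 times the KO mean, and single pairs of libraries ranged from 180 to 226 times. On the log2(FPKM + 1) scale, which understates the change of low genes, the difference was -6.25 (SE 0.040). In rank, Cxcl2 was number 326 of the 55335 identifiers by its WT mean and number 12340 by its KO mean. The KO values still exceeded the floor of 3 fragments (0.1701 FPKM), and the lowest corresponded to about 9.65 fragments.

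The other neutrophil-attracting ligands were not detectable at this depth. Cxcl3 (chromosome 5, 90786103 to 90789600, plus strand) had 0.0490, 0.0370 and 0.0920 FPKM with WT neutrophils and 0 in the 3 KO libraries, all under its floor of 0.190 FPKM. Cxcl1 (chromosome 5, 90891241 to 90893115, plus strand) was listed at 0 except for 0.0821 FPKM in KO replicate 3, under its floor of 0.198 FPKM. Cxcl5 (chromosome 5, 90759360 to 90761624, plus strand) was at 0 in all 6 libraries. Cxcl2 and Cxcl3 are close paralogs: 126 stretches of 50 bases were common to their transcripts, 5.84% of those of Cxcl2 and 3.51% of those of Cxcl3, so the split of reads between them is uncertain. Cxcl1 shared no such stretch with either.

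**Figure D1:**
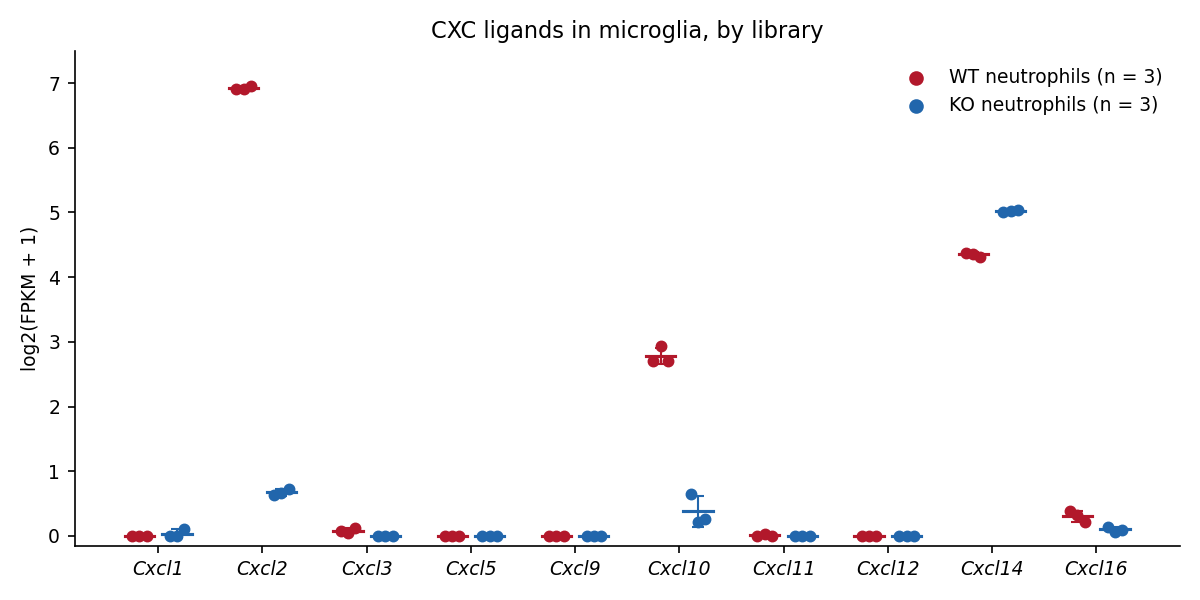
FPKM of the 10 CXC ligands by library, plotted as log2(FPKM + 1). Each point is a library, horizontal bars are means and error bars SD (n = 3 per arm). Cxcl2 and Cxcl10 stand apart with WT neutrophils (red), Cxcl14 lies higher with KO neutrophils (blue), and the others sit at or near 0.

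Next, the interferon-induced ligands were examined. Cxcl10 (chromosome 5, 92346638 to 92348889, minus strand) stood at 5.53, 6.62 and 5.52 FPKM in the WT libraries and at 0.575, 0.165 and 0.200 FPKM in the KO libraries. The arms did not overlap, but the KO libraries were uneven, since replicate 1 was above the other two. The means were 5.89 ± 0.633 and 0.313 ± 0.227 FPKM (SD, n = 3 each), a coefficient of variation of 10.8% and 72.6%. The WT mean was 18.8 times the KO mean, with single pairs of libraries from 9.60 to 40.2 times, and the ratio rose to 32.3 without KO replicate 1. The difference on the log2(FPKM + 1) scale was -2.40 (SE 0.136). The lowest KO value corresponded to 3.39 fragments, close to the floor of 3. Art3 overlaps Cxcl10 on the opposite strand, but it reached at most 0.0396 FPKM.

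The relatives of Cxcl10 on the same chromosome gave no comparable signal. Cxcl9 (chromosome 5, 92321347 to 92328079, minus strand) was listed at 0 in all libraries. Cxcl11 (chromosome 5, 92359544 to 92365485, minus strand), annotated as a polymorphic pseudogene in this strain's reference genome, had 0.0169 FPKM in WT replicate 2 and 0 elsewhere. Thus Cxcl10 was the only member of this group with a measurable level in either arm.

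Cxcl14 (chromosome 13, 56288643 to 56296551, minus strand) went in the other direction. Its FPKM was 19.8, 19.6 and 19.0 in the WT libraries and 31.1, 31.4 and 31.9 in the KO libraries. The arms did not overlap and the libraries of each arm were close together, with means of 19.4 ± 0.438 and 31.4 ± 0.397 FPKM (SD, n = 3 each). The KO mean was 1.62 times the WT mean, with single pairs from 1.57 to 1.68 times, and the difference on the log2(FPKM + 1) scale was 0.67 (SE 0.029). Cxcl12 (chromosome 6, 117168535 to 117181367, plus strand) was at 0 in all 6 libraries.

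Cxcl16 (chromosome 11, 70453983 to 70459984, minus strand) was low throughout. Its FPKM was 0.307, 0.245 and 0.157 in the WT libraries and 0.103, 0.0433 and 0.0706 in the KO libraries. The arms did not overlap, with means of 0.236 ± 0.0754 and 0.0722 ± 0.0297 FPKM (SD, n = 3 each). Its floor was 0.0714 FPKM (WT) and 0.0699 FPKM (KO), so the KO mean was near the limit of detection. The WT mean was 3.28 times the KO mean, an imprecise ratio that ran from 1.53 to 7.09 over single pairs of libraries. Zmynd15, which overlaps Cxcl16 on the opposite strand, had 0.0143 to 0.144 FPKM, a similar level, and the sources used here do not say whether strand was used in the counting.

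The 3 members that entered the limma fit all had an adjusted p under 0.05 (2 lower and 1 higher with KO neutrophils), but so did 43.3% of all genes tested (18.8% lower and 24.5% higher), and nothing is read from this count because the same values chose the members. Of all calls 43.4% were lower with KO neutrophils. This share was 55.5% on the TPM scale and 54.9% when each library was scaled to the mean of the column sums. Of the members with both means above 0, Cxcl2, Cxcl10 and Cxcl16 had a KO mean more than 2-fold below the WT mean. Cxcl3 and Cxcl11, at 0 in the KO arm and under the floor in the WT arm, were not counted. Of the genes tested, which do not include Cxcl16, 2.93% lay more than 2-fold lower. The arms did not overlap for 55.8% of the genes tested.

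The make-up of the CXC ligand transcripts was set side by side as well. The 10 members summed to 145, 146 and 148 FPKM with WT neutrophils and to 32.3, 32.2 and 32.9 FPKM with KO neutrophils. Cxcl2 made up 81.9% to 83.3% of this sum in the WT libraries and 1.69% to 2.01% in the KO libraries. Cxcl14 made up 12.8% to 13.7% and 96.2% to 97.5%, and Cxcl10 made up 3.72% to 4.53% and 0.512% to 1.78%. The order of levels per transcript length was Cxcl2, Cxcl14, Cxcl10 and Cxcl16 with WT neutrophils, with no overlap between neighbours. With KO neutrophils Cxcl14 came first at 48.2 to 56.8 times the Cxcl2 level of the same library, and Cxcl2 and Cxcl10 overlapped, since Cxcl10 in replicate 1 (0.575 FPKM) exceeded the lowest Cxcl2 value (0.547 FPKM). In bulk RNA, fewer cells that make a transcript and less of it per cell cannot be told apart.

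**Figure D2:**
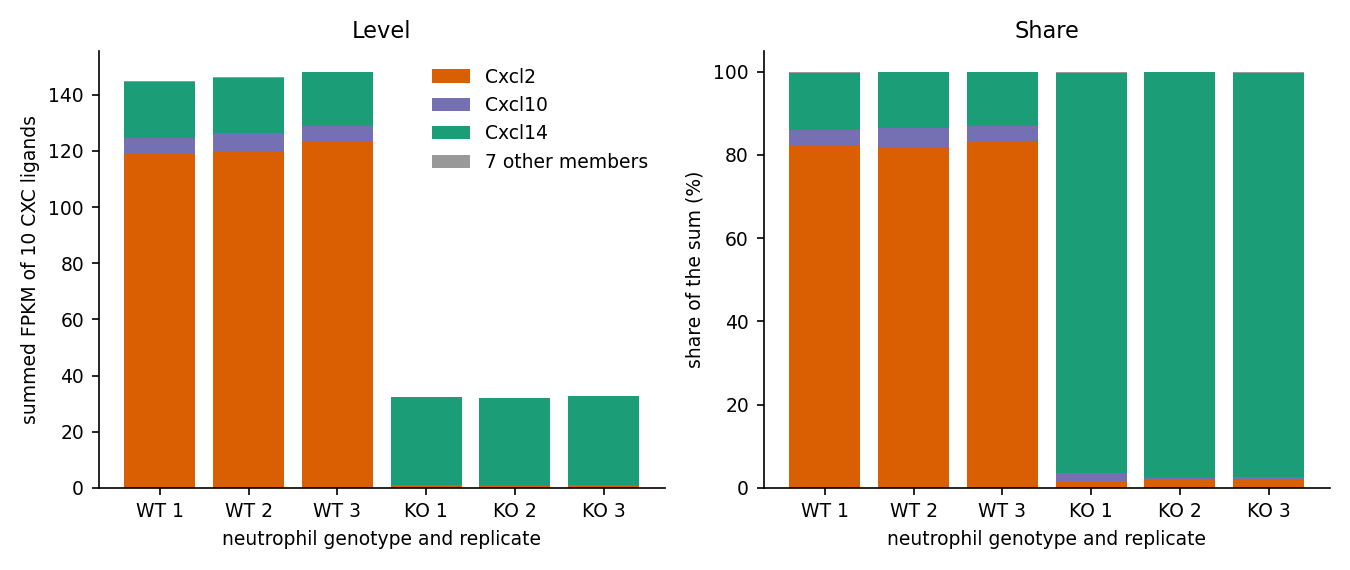
Summed FPKM of the 10 CXC ligands in each library (left, bars from 0) and the share of each ligand in that sum in percent (right). Cxcl2 fills 81.9% to 83.3% of the sum with WT neutrophils and Cxcl14 fills 96.2% to 97.5% with KO neutrophils.

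Other CXC ligands were compared to see how far the difference extended. Pf4, the platelet factor that is encoded between Cxcl5 and Cxcl3 (chromosome 5, 90772435 to 90773383, plus strand), was at 45.9, 48.4 and 49.8 FPKM in the WT libraries and at 49.9, 51.8 and 48.9 FPKM in the KO libraries. The arms overlapped, with means of 48.1 ± 1.97 and 50.2 ± 1.497 FPKM (SD, n = 3 each), and the difference of 0.06 on the log2(FPKM + 1) scale (SE 0.038) did not pass the test (limma adjusted p = 0.240). Its level lay between those of Cxcl2 and Cxcl14 with WT neutrophils and above Cxcl14 with KO neutrophils. Ppbp, Cxcl13, Cxcl15 and Cxcl17 reached at most 0.140 FPKM in any library. On chromosome 5, where 11 CXC ligand genes lie, Cxcl5 to Cxcl2 span 146.58 kb and Cxcl9 to Cxcl11 span 44.138 kb further along. Detected and undetected genes were neighbours in both groups.

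**Figure D3:**
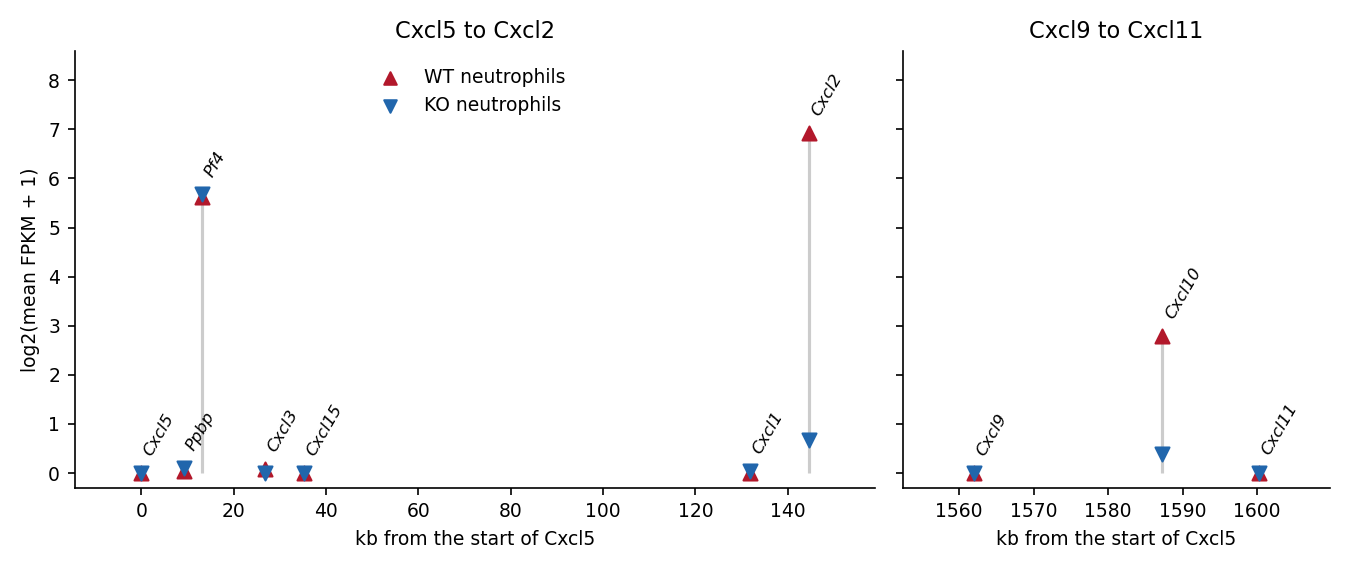
Mean expression, as log2(mean FPKM + 1), of the CXC ligand genes on chromosome 5 against the distance in kb from the start of Cxcl5 (Cxcl13, which lies apart, is not drawn). Red triangles are means of the 3 WT libraries and blue triangles of the 3 KO libraries, and grey stems run from 0. Pf4 is alike in both arms at 48.1 and 50.2 FPKM. Cxcl2 is high only in red, and Cxcl10 is higher in red at a modest level (5.89 FPKM).

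The receptors of these ligands were then examined. Of 8 receptor genes, Cxcr4, the receptor of Cxcl12, was the only one tested (chromosome 1, 128588199 to 128592293). Its FPKM was 9.56, 10.5 and 9.85 in the WT libraries and 24.7, 27.5 and 27.1 in the KO libraries. The arms did not overlap, and Cxcr4 rose by 1.32 on the log2(FPKM + 1) scale (SE 0.053, limma adjusted p = 8.11e-06), a KO mean 2.65 times the WT mean. Its ligand Cxcl12 was at 0 in every library. Cxcr3, the receptor of Cxcl9 and Cxcl10, was at 0.518, 0.858 and 0.731 FPKM (WT) and at 1.29, 0.686 and 0.729 FPKM (KO), so that the arms overlapped. Cxcr2, the receptor of Cxcl2, was also low, at 0.362, 0.626 and 0.346 FPKM and 0.148, 0.331 and 0.399 FPKM.

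Genes that act upstream of the ligands were read from lists that were written with earlier results of these data known. In the NF-kB and C/EBP list, 16 of 17 genes were tested, 15 fell with KO neutrophils and none rose, beside 18.8% lower and 24.5% higher over all genes tested. The median was -0.72 on the log2(FPKM + 1) scale beside 0.02 over all genes. Nfkbiz, which encodes the nuclear cofactor IkB-zeta, fell from 41.2 ± 0.219 to 4.12 ± 0.316 FPKM (mean ± SD, n = 3 per arm, as for the genes that follow), and its log2 change was -3.04 with an SE of 0.050 (limma adjusted p = 2.47e-07). Nfkbia, which encodes the inhibitor IkB-alpha and is itself an NF-kB target, fell from 74.0 ± 2.37 to 12.9 ± 1.08 FPKM (log2 change -2.44, limma adjusted p = 1.10e-06). The subunit genes Nfkb2 (log2 change -1.25, limma adjusted p = 8.52e-07) and Nfkb1 (-1.24, limma adjusted p = 4.63e-06) fell less. Both activators and inhibitors of NF-kB were thus among the genes that fell. Cebpa, the gene that was not tested, was at 0.174, 0.162 and 0.141 FPKM (WT) and at 1.04, 1.176 and 0.710 FPKM (KO), and it counted as higher on the TPM scale and without the filter on low values.

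In the interferon list, 15 of 18 genes were tested, 6 fell, none rose and 9 did not pass, and the median was -0.12 beside 0.02 over all genes. Over all genes tested 43.3% were called (18.8% lower and 24.5% higher), so the share of the list that was called was near the background. Irf7, which amplifies the interferon response, fell from 15.7 ± 0.876 to 2.20 ± 0.111 FPKM (log2 change -2.38, SE 0.055, limma adjusted p = 9.33e-07). Jak2 (log2 change -0.94, limma adjusted p = 0.000108) and Ifnar2 (-0.40, limma adjusted p = 0.000648) fell by less. Of the interferons themselves only Ifng and Ifnb1 were on the list, and neither was detectable: Ifng was at 0 throughout and Ifnb1 reached at most 0.0837 FPKM. Without WT replicate 1 the list gave 5 lower and 1 higher, the receptor gene Ifngr1, named after its value was seen.

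Of the genes for cleavage of chemokines and for decay or stability of their mRNA, 14 of 19 were tested, 6 fell, 4 rose and 4 did not pass, beside 18.8% lower and 24.5% higher over all genes, with a median of -0.03 beside 0.02. The protease gene Mmp9 fell from 7.13 ± 0.0688 to 0.987 ± 0.190 FPKM (log2 change -2.04, limma adjusted p = 7.38e-06), and Zfp36, whose product tristetraprolin speeds the decay of many cytokine mRNAs, fell from 12.9 ± 0.283 to 4.67 ± 0.249 FPKM (log2 change -1.30, limma adjusted p = 5.36e-06). Its paralog Zfp36l2 rose from 28.4 ± 0.573 to 47.9 ± 1.27 FPKM (log2 change 0.73, limma adjusted p = 8.80e-06). The cathepsin gene Ctsk also rose, from 293 ± 3.18 to 413 ± 3.51 FPKM (log2 change 0.49, limma adjusted p = 4.63e-06). Members of the ZFP36 family thus differed in direction.

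**Figure D4:**
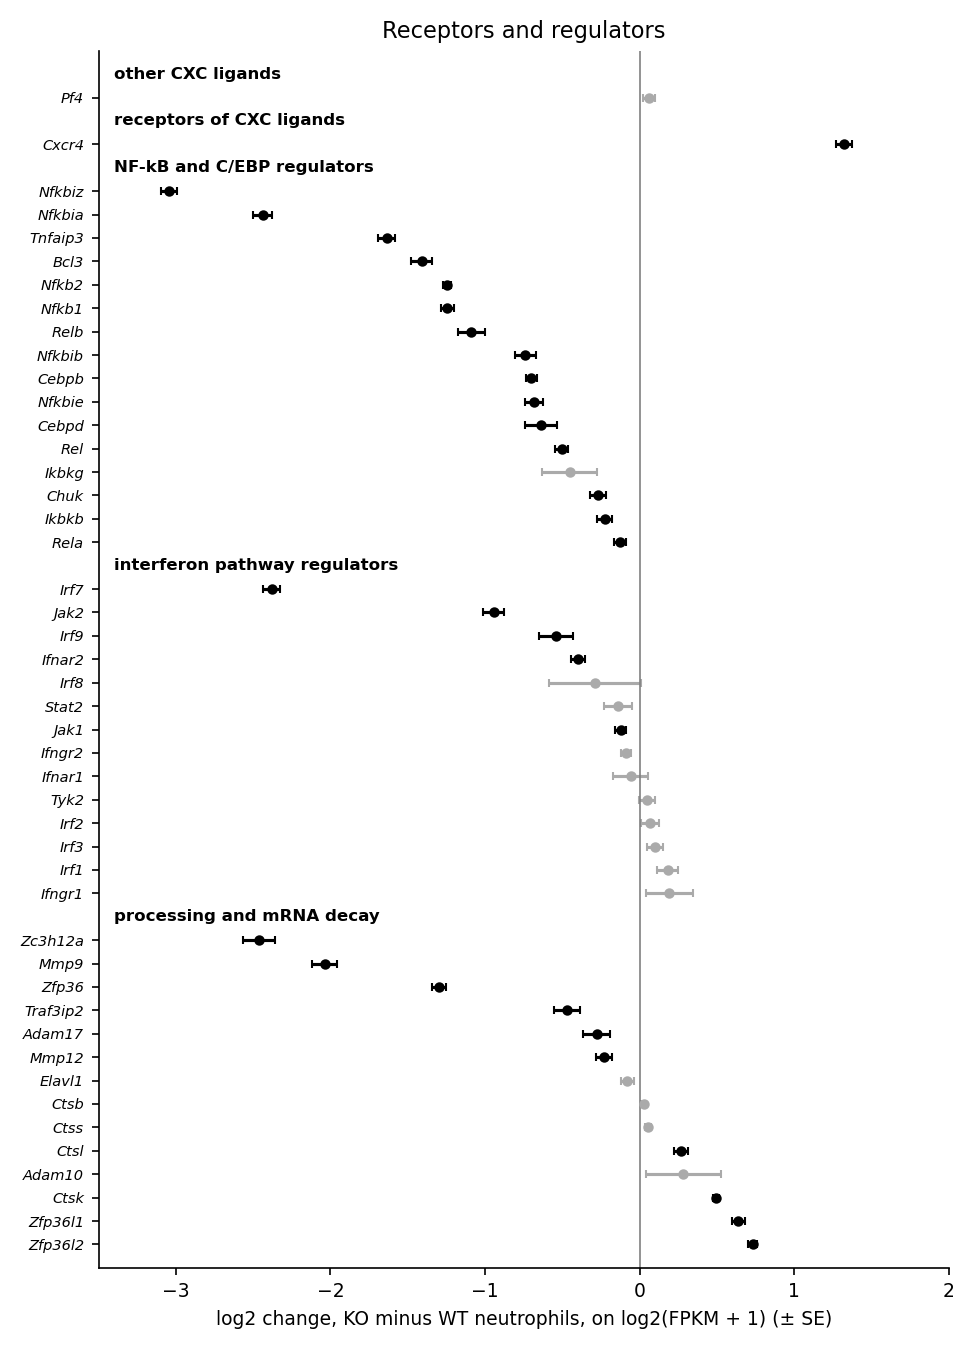
Log2 change (KO minus WT neutrophils, on the log2(FPKM + 1) scale) with its SE for tested genes of the lists of other ligands, receptors and regulators. Black points have a limma adjusted p under 0.05 and grey points do not. In the NF-kB and C/EBP list 15 of 16 genes are black and left of 0, while the processing and mRNA decay list lies on both sides.

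The genes with profiles nearest to those of the ligands over the 6 libraries were found by the Euclidean distance between log2(FPKM + 1) values, among the genes tested. Nearest to Cxcl2 were Lcn2 (distance 0.788), which encodes an iron-siderophore binding protein, the growth factor gene Csf3 (1.17) and the cytokine gene Il1a (2.67). The means were 110 ± 2.30 FPKM (WT) and 0.200 ± 0.137 FPKM (KO) for Lcn2. For Csf3 the WT mean was 125 ± 2.28 FPKM, and the KO libraries were listed at 0. Cxcl10 was nearest to Upp1 (0.436), Ccrl2 (0.665) and 4930438A08Rik (0.699). Cxcl16 had no near gene, since its own level lay under that of every gene tested (Trim14 was nearest at 1.95, then Mier3 at 1.95 and Yjefn3 at 1.96). Cxcl14, added after its values had been seen, was nearest to Anxa1 (0.0972), Gclc (0.113) and Fzd7 (0.122).

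Cell identity was read from marker genes. All 12 shared macrophage markers were tested, with sums of 2736 to 2799 FPKM (WT) and 2953 to 3018 FPKM (KO). Within these sums the markers moved in both directions: 3 fell (Cd14, Cybb and Adgre1, log2 changes -1.79, -1.77 and -1.34), 6 rose (among them Laptm5 at 0.86 and Lgals3 at 0.72) and 3 did not pass the limma test, beside 18.8% lower and 24.5% higher over all genes tested. Their part in the ligand differences was not tested. Of 16 microglia markers, 11 stayed under 1 FPKM in every library, including P2ry12 (at most 0.148 FPKM) and Tmem119 (at most 0.793 FPKM), and Fcrls, Sall1 and C1qa were at 0, so few of the markers bear on the label of microglia. Among those tested, Tyrobp, Csf1r and Trem2 rose and Cx3cr1 fell. The summed microglia markers were 307 to 311 FPKM (WT) and 380 to 417 FPKM (KO), and their part in the ligand differences was not tested. The 15 neutrophil markers were all under 1 FPKM, 7 of them, Ly6g, Mpo, Elane, S100a9, Ltf, Retnlg and Stfa2l1, were at 0 in all libraries, and they summed to 2.13 to 2.38 FPKM (WT) and 0.791 to 1.41 FPKM (KO), without overlap between the arms. This neutrophil sum includes Cd177, the gene that the KO neutrophils lack, and several of the summed values lay under their detection floors. The part of carried-over neutrophil RNA in the ligand differences was not tested. The 13 astrocyte and oligodendrocyte markers stayed at or under 0.205 FPKM, with sums of 0.319 to 0.400 and 0.289 to 0.385 FPKM and 7 of them at 0. The 12 fibroblast and endothelial markers stayed at or under 0.258 FPKM, with sums of 0.270 to 0.347 and 0.106 to 0.142 FPKM and 5 of them at 0.

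Cd177 itself was at 0.477, 0.113 and 0.151 FPKM (WT) and at 0.109, 0.022 and 0.084 FPKM (KO), too low to check the neutrophil genotype. Depth, estimated from the most common step between low FPKM values, was 15.6 to 19.2 per library in units of 1000000 fragments. On this estimate 1 fragment of a 1 kb transcript was worth 0.0520 to 0.0642 FPKM. Libraries of the same arm correlated at 0.988 to 0.989 (Pearson's r over genes, which are not independent replicates) and libraries of different arms at 0.956 to 0.959.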

How the data were processed

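The authors deposited 1 table of FPKM values, with 1 column per library and no pooling. The submitters' processing notes name fastp 0.17.1, HISAT2 2.1.0, DESeq2 1.18.1 and R 3.4.3. The genome build, the annotation and the program that computed FPKM are not given in the sources used here, and the labels and the study's methods name different library kits and sequencers. No counts were used, so no count test was run. Groups and replicate numbers came from the sample titles.

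Identifiers were matched to GENCODE M21 (GRCm38), which named 55154 of 55335. The test was limma 3.58.1 in R 4.3.3, run on log2(FPKM + 1) with lmFit and a trended eBayes, for KO minus WT without covariates. It took the 11395 genes whose mean reached 1 FPKM, and Benjamini-Hochberg adjustment covered all of them. The code was tested on simulated data. The members, gene lists and motifs were chosen with earlier results of these data known. All members were named, with other CXC ligands and receptors of at least 1 FPKM in any library, the 4 genes of smallest p in each other list, and the 3 nearest profiles of Cxcl2, Cxcl10 and Cxcl16. Some genes that this rule names are not reported here.

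The worth of 1 fragment was taken as the most common step between low values. Only 41.6% to 43.3% of low values came out whole within 0.1 fragment, against 20% by chance, so whole fragments per gene were not recovered. The detection floor is 3 fragments on the shortest coding transcript and covers counting error only. Alternatives were a pseudocount of 0.1, no filter, a mean of at least 5 FPKM, no variance trend, the TPM scale, quantile normalization, centring on the median, a replicate block and leaving out each library. Scaling to the mean of the column sums was added after the result on the TPM scale had been seen, because the TPM scale also changes what the filter and the pseudocount mean.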

Additional observations from a re-analysis of the deposited data

How the results depend on the processing

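Over 15 alternative settings 352 values were recomputed. None of the 253 recomputed changes, of 17 single genes, reversed in sign. Of these genes, those outside the members also kept their side of the threshold. All 99 recomputed counts stayed within 1.5 times the reported count. Some genes of the lists did cross the threshold: the NF-kB and C/EBP list had 14 calls without the variance trend, against 15. Genes called ranged from 3763 (mean of at least 5 FPKM) to 4969 (TPM scale), against 4930, and from 4081 to 4229 when 1 library was left out. The 3 members called became 2 of 2 tested at a mean of at least 5 FPKM, where Cxcl10 was not tested, beside 3763 of 7383 genes. With no filter they became 4 of 7 tested, Cxcl16 being the fourth, beside 4504 of 25195 genes. Nothing is read from these counts of members. The fitted change of Cxcl2 moved to -7.44 with a pseudocount of 0.1 and to -7.09 on the TPM scale, that of Cxcl10 to -3.99 and -3.38, and that of Cxcl14 to 0.64 on the TPM scale and 0.62 with the mean of the column sums, the setting added after seeing the data. The pseudocount weighs more on low values by construction. The share of calls that were lower with KO neutrophils turned on the scale, from 43.4% to 55.5% and 54.9%.

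Replicate numbers gave no sign of pairing: deviations of same-numbered libraries correlated at -0.075, -0.052 and -0.005. These values cannot show whether same-numbered cultures were prepared together. The replicate block gave 4212 calls over all genes, 3 members, 1 receptor, 14 NF-kB and C/EBP genes, 5 interferon genes and 10 processing and decay genes. Depth limits the members under the floor of 3 fragments, for which no difference between the arms was detectable.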
